A study of Mus musculus with 28 samples.

Results

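The E2F transcription factors and the pocket proteins that bind them were examined in mouse fibroblasts that grew for up to 72 h at high or low glucose. The 10 genes E2f1, E2f2, E2f3, E2f4, E2f5, E2f7, E2f8, Rb1, Rbl1 and Rbl2 were matched on the array annotation's gene symbols, and all 10 were found among 18193 measured genes. They were read by 22 of 34945 probe sets, groups of short array probes that read a stretch of a transcript. Names ending in _a_at, _s_at or _x_at mark probe sets that can match several transcripts of a gene or also transcripts of other genes. E2f4 and E2f7 had 1 probe set each, E2f2, E2f3, E2f8, Rb1 and Rbl2 had 2 each, E2f1 and E2f5 had 3 each, and Rbl1 had 4.

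The study compared NIH3T3, an immortalised mouse embryo fibroblast line, with a line labelled NIH3T3 K-ras, called K-ras here. The labels used here do not say how the K-ras line was made or how many clones are behind it. All cells were kept for 18 h in medium with 10% newborn calf serum and 4 mM glutamine. NIH3T3 cells were collected at the change of medium, labelled 0 h and 25 mM glucose, and then 24, 48 and 72 h later from medium with 25 mM or 1 mM glucose and 4 mM glutamine. K-ras cells were collected at the same 7 combinations of glucose and time. Each of the 14 groups held 2 arrays, labelled as biological replicates, so 28 arrays were used. Each value is a log2 ratio to the same probe set's median over the 28 arrays. Differences between arrays can therefore be read, while levels cannot be ordered between genes. RNA was measured in bulk, so a smaller share of cells with a transcript and less transcript per cell cannot be told apart, and protein amounts and phosphorylation were not measured.

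E2F factors bind promoters of genes for DNA synthesis and the cell cycle. E2f1, E2f2 and E2f3 are classed as activators. E2f4 and E2f5 act mostly as repressors together with pocket proteins, and E2f7 and E2f8 are atypical repressors that need neither a pocket protein nor a DP partner. The pocket proteins Rb1, Rbl1 (p107) and Rbl2 (p130) hold E2F target genes down until cyclin-dependent kinases phosphorylate them. Rbl2 is known as the pocket protein of resting cells, and it joins E2F4 and the MuvB proteins in the DREAM complex, while Rbl1, E2f7, E2f8 and the activators are themselves known E2F-responsive genes.

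The genes lie, in build GRCm38.p6, at chr2:154559400-154569892 (E2f1), chr4:136172274-136196057 (E2f2), chr13:29906575-29986064 (E2f3), chr8:105297663-105305370 (E2f4), chr3:14578602-14606309 (E2f5), chr10:110745439-110787384 (E2f7), chr7:48866429-48882073 (E2f8), chr14:73192858-73325951 (Rb1), chr2:157145893-157204534 (Rbl1) and chr8:91070057-91123844 (Rbl2). All are annotated as protein coding. Promoter windows of RefSeq, from 250 bases before to 50 after a transcript start, were given for 7 of the 10 genes, in 9 windows. Stretches of them with a match are shown for the members that followed the E2F target genes most closely and for Rbl2, which rose in NIH3T3 by both its probe sets. The E2F motif was searched as TTTCCCGC, TTTGGCGC, TTTCGCGC or TTTGCCGC, and the CHR motif, an element bound by the MuvB proteins, as TTTGAA, both on either strand. In the stretches below, written 5′ to 3′ on the gene's strand, capitals mark a match.
E2f7, chr10:110745216-110745273, plus strand: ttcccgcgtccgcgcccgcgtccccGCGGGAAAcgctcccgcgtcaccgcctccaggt
E2f8, chr7:48881597-48881641, minus strand: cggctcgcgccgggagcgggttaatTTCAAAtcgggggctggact
Rbl1, chr2:157204535-157204577, minus strand: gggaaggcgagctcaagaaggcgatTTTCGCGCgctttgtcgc
E2f3, chr13:29986064-29986111, minus strand: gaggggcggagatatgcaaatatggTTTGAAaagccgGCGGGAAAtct
E2f2, chr4:136172302-136172323, plus strand: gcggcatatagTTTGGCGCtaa
Rbl2, chr8:91069831-91069886, plus strand: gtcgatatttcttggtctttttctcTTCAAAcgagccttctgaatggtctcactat
The E2F letters began 198 bases before the start in E2f7, 18 before it in Rbl1, 11 before it in E2f3 and 40 after it in E2f2. In all, 4 of the 9 windows held E2F letters and 4 held CHR letters, and no match of the E2F letters overlapped one of the CHR letters. One of the windows with CHR letters, at another start of E2f2 and 31 bases before it, is not shown. Over all 32851 windows of the table, 2.26% held the E2F letters and 17.9% the CHR letters. A match describes letters only and not a bound site, and the window of E2f1 held neither motif as spelled here.

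Some arrays did not go with their labels. On the 500 genes with the largest SD, members left out, the arrays formed 2 clusters of 14, and 11 of the 14 arrays of each line fell with their own line. The other 6 had the profile of the other line. They were both NIH3T3 arrays at 1 mM and 24 h, replicate 1 of NIH3T3 at 1 mM and 48 h, and replicate 1 of K-ras at 25 mM and 0 h, at 1 mM and 48 h and at 1 mM and 72 h. Labels were kept, and the values that rest on these arrays are given with and without them where enough arrays remain, the latter from a fit without all 6. Where this, or leaving out 1 array, left a group with 1 array, there was no spread within that group and limma took it from the other groups. The spiked hybridisation control bioC was between -2.35 and -0.81 on 12 NIH3T3 arrays and between -0.27 and 2.94 on the other 16. At 25 mM this level coincided with the line, so the line and the hybridisation level cannot be told apart there. Comparisons of times within a line at 25 mM lie within 1 level. Replicate 1 of K-ras at 25 mM and 72 h stood apart, with the highest bioC value and the widest spread of values (interquartile range 0.65, against at most 0.45 elsewhere).

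**Figure D1:**
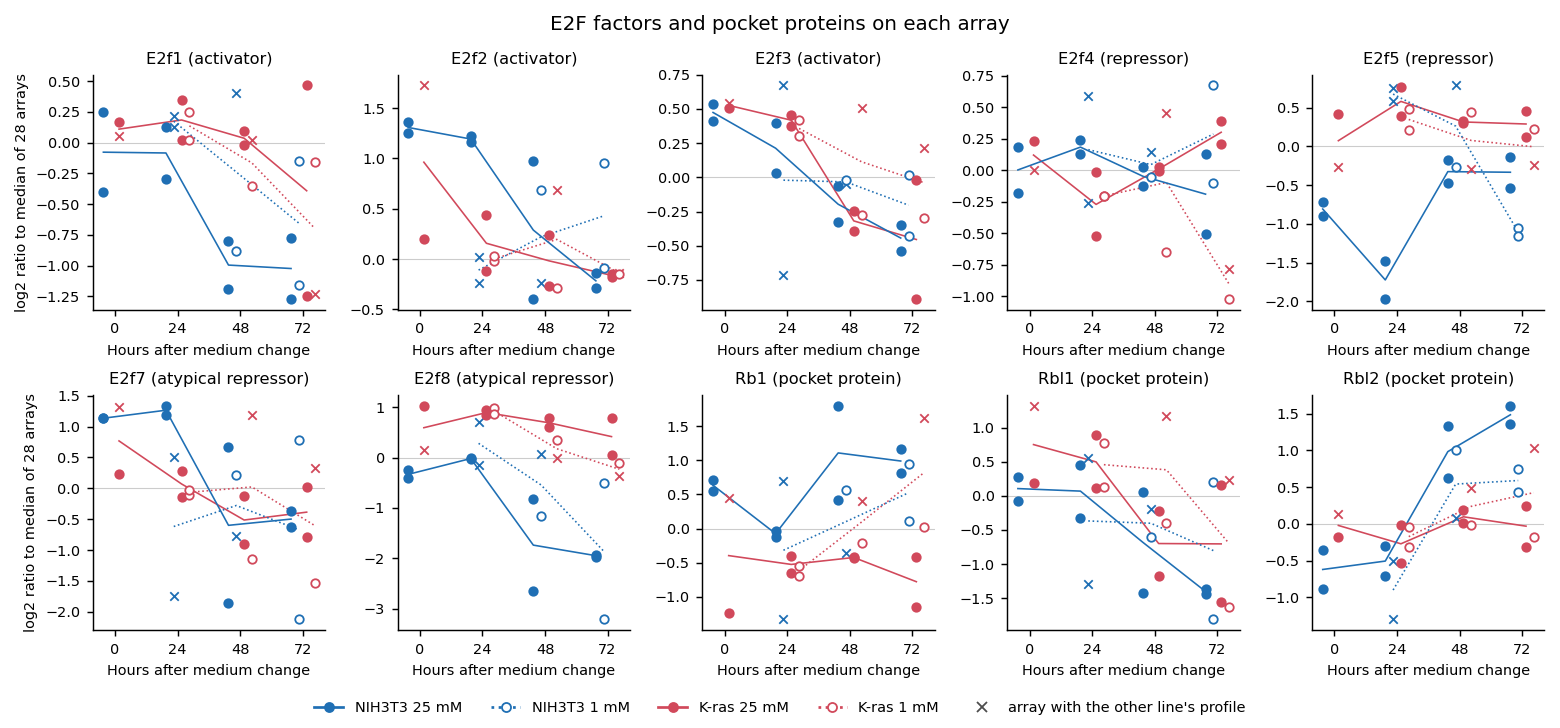
The log2 ratio of each member to its median over 28 arrays is plotted against hours after the medium change, for the probe set of each gene with the largest SD; points are arrays, lines join group means, and crosses are the 6 arrays with the other line's profile. In NIH3T3 at 25 mM (filled blue), Rbl2 lay between 1.36 and 1.61 at 72 h against -0.89 and -0.35 at 0 h, while E2f8 stayed below every K-ras array at 25 mM (filled red and the cross at 0 h).

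The main change over time was seen in the pocket protein Rbl2 of NIH3T3 cells at 25 mM. Rbl2 was read at -0.35 and -0.89 at 0 h, at -0.31 and -0.71 at 24 h, at 1.34 and 0.63 at 48 h and at 1.61 and 1.36 at 72 h by the probe set 1425981_a_at. All 4 arrays of 0 and 24 h were low, all 4 of 48 and 72 h were high, and the early and late arrays did not overlap. From 0 to 72 h the log2 fold change was 2.10 ± 0.40 (standard error, n = 2 arrays against 2; 95% interval 1.26 to 2.95; limma, adjusted p = 0.00868). The other Rbl2 probe set, 1418146_a_at, rose by 1.20 ± 0.34 (limma, adjusted p = 0.0468). From 24 to 72 h the rises were 1.99 ± 0.40 and 1.53 ± 0.34 (limma, adjusted p = 0.0122 and 0.0176). The 0 to 72 h call of 1418146_a_at was lost without any 1 of the 4 arrays (limma, adjusted p from 0.0907 to 0.383) and after quantile normalisation (0.0999). The 24 to 72 h calls of both probe sets held without replicate 1 of 24 h and were lost without replicate 2 of 24 h or either array of 72 h (0.0707 to 0.146 for 1425981_a_at and 0.0618 to 0.21 for 1418146_a_at). Here and below a probe set is called changed at an adjusted p under 0.05 over all 34945 probe sets, with no fold threshold. Whether arrays overlap is given as a description only, since the share of all probe sets without overlap was not counted.

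In K-ras cells at 25 mM neither Rbl2 probe set was called over time. The probe set 1425981_a_at was at 0.13 and -0.18 at 0 h, at -0.0098 and -0.53 at 24 h, at 0.18 and 0.0098 at 48 h and at -0.31 and 0.25 at 72 h. The arrays of 0 and 72 h overlap. The change from 0 to 72 h was -0.01 ± 0.40 (95% interval -0.86 to 0.84), and 0.14 ± 0.36 without the 0 h array of the other profile. The difference in this change between the lines was -2.11 ± 0.57 (95% interval -3.31 to -0.92) and did not pass the threshold (limma, adjusted p = 0.374; -1.96 ± 0.47 and 0.345 without the arrays of the other profile). The other probe set, 1418146_a_at, had 0.65 ± 0.34 in K-ras (95% interval -0.06 to 1.36), and its difference between the lines was -0.56 ± 0.48. Without the arrays of the other profile these were 0.99 ± 0.37 and -0.21 ± 0.47. At 72 h itself, Rbl2 was lower in K-ras than in NIH3T3 by a log2 value of -1.52 ± 0.40, which also missed the threshold (limma, adjusted p = 0.0707). Without the 6 arrays of the other profile the same difference had a limma adjusted p of 0.00691. Those 6 hold none of the 4 arrays compared here, so leaving them out changes only the estimate of the spread. In NIH3T3 the call of the 72 h against 0 h rise for 1425981_a_at held without replicate 1 of 0 h. It was lost without replicate 2 of 0 h (1.83, adjusted p = 0.105 with limma), replicate 1 of 72 h (1.98, 0.106) or replicate 2 of 72 h (2.23, 0.0597). The fold change thus kept its sign and most of its size in each of these fits.

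Of the 22 probe sets, 2 were called higher and 0 lower at 72 h against 0 h in NIH3T3, both of Rbl2, against 5.11% of all probe sets called in either direction (3.14% higher and 1.97% lower). At 72 h against 24 h, 3 were called higher and 0 lower, against 5.15% of all (3.19% higher and 1.96% lower). The third of these was E2f5, read by 1417444_at, at 1.39 ± 0.33 (limma, adjusted p = 0.0228). E2f5 forms the canonical repressor E2Fs together with E2f4. Its NIH3T3 arrays were at -0.71 and -0.90 at 0 h, at -1.97 and -1.48 at 24 h, at -0.18 and -0.47 at 48 h and at -0.13 and -0.54 at 72 h. By this probe set it was thus lowest at 24 h, and 72 h against 0 h differed by 0.47 ± 0.33 (95% interval -0.21 to 1.16). The other E2f5 probe sets were not called. Between 24 and 72 h the mean of 1447625_at went the opposite way, from 0.80 to -0.22. That of 1460207_s_at went from -0.67 to -0.29. Without any single array of the 4 at 24 and 72 h this E2f5 call was lost (limma, adjusted p from 0.0596 to 0.217). In the first 24 h 0 of 22 probe sets were called, against 0.00572% of all.

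The count of lower calls at 72 h turned on which arrays set the spread. With a fit on only the 4 arrays compared, 2 probe sets were called higher and 9 lower at 72 h against 0 h, against 23.5% of all called, and 4 higher and 10 lower at 72 h against 24 h, against 16.9% of all. The 9 were probe sets of E2f1, E2f2, E2f3, E2f7, E2f8 and Rbl1. Without the 6 arrays of the other profile the counts were 2 higher and 4 lower against 0 h (9.61% of all) and 3 and 3 against 24 h (8.91% of all). The fold changes are the same in these fits, which differ in the arrays behind the estimate of the spread.

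The activators E2f1, E2f2 and E2f3 had lower values late in NIH3T3, but none of their 7 probe sets passed the threshold with all 28 arrays in the fit. E2f2, read by 1455790_at, lay at 1.36 and 1.25 at 0 h, at 1.23 and 1.16 at 24 h, at -0.40 and 0.97 at 48 h and at -0.14 and -0.29 at 72 h. The 72 h arrays did not overlap those of 0 h, and the log2 fold change was -1.52 ± 0.49 (95% interval -2.56 to -0.49; limma, adjusted p = 0.0808). E2f1, read by 1417878_at, lay at -0.40 and 0.25 at 0 h, 0.13 and -0.30 at 24 h, -1.19 and -0.80 at 48 h and -0.78 and -1.27 at 72 h. Its 4 late arrays were all below its 4 early arrays. The 72 h against 0 h value was -0.95 ± 0.50 (95% interval -2.0 to 0.11) by this probe set and -1.13 ± 0.38 by 1431875_a_at (limma, adjusted p = 0.096). E2f3, read by 1434564_at, went from 0.41 and 0.53 at 0 h to 0.40 and 0.03 at 24 h, -0.07 and -0.33 at 48 h and -0.35 and -0.54 at 72 h. The 72 h against 0 h value was -0.92 ± 0.36 (limma, adjusted p = 0.158). The remaining activator probe sets had smaller values of the same sign, -0.58 ± 0.23 for E2f1 (1447840_x_at), -0.62 ± 0.36 for E2f2 (1436434_at) and -0.39 ± 0.24 for E2f3 (1427462_at). Without the 6 arrays of the other profile, which changes only the estimate of the spread here, E2f1 (1431875_a_at), E2f2 (1455790_at) and E2f3 (1434564_at) passed at 72 h against 0 h with limma adjusted p of 0.0395, 0.0289 and 0.0412. E2f8 by 1444319_at (-0.73) passed there too, at a limma adjusted p of 0.0213.

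In K-ras at 25 mM E2f2 and E2f3 also had lower values late, and none was called. E2f2 lay at 1.73 and 0.20 at 0 h, the first of these on the array with the other line's profile, at -0.12 and 0.44 at 24 h, at -0.27 and 0.24 at 48 h and at -0.14 and -0.18 at 72 h. E2f3 lay at 0.54 and 0.51 at 0 h, at 0.46 and 0.38 at 24 h, at -0.39 and -0.24 at 48 h and at -0.89 and -0.02 at 72 h. E2f3 was below its 0 and 24 h arrays on all 4 later arrays, with a 72 h against 0 h value of -0.98 ± 0.36 (95% interval -1.74 to -0.22; limma, adjusted p = 0.272), and -0.96 ± 0.32 without the 0 h array of the other profile. E2f1, read by 1417878_at, lay at 0.05 and 0.17 at 0 h and at 0.35 and 0.02 at 24 h. It lay at -0.02 and 0.09 at 48 h and at -1.25 and 0.47 at 72 h. By this probe set only replicate 1 of 72 h, the array that stands apart, was low. The other E2f1 probe sets went in opposite directions. Their K-ras means at 0 and 72 h were 0.23 and 0.50 by 1431875_a_at and -0.03 and -0.39 by 1447840_x_at. Over the arrays of the K-ras profile, 1417878_at and 1431875_a_at had a Pearson r of -0.16. The low E2f1 reading thus depended on the probe set. E2f2 by 1455790_at had -1.12 ± 0.49 (limma, adjusted p = 0.324) with all arrays and -0.36 ± 0.48 without the array of the other profile at 0 h. By the other E2f2 probe set, 1436434_at, the K-ras means were 0.24, -0.23, -0.13 and 0.15 at 0, 24, 48 and 72 h. The 0 h mean includes the array of the other profile. Over the arrays of the K-ras profile the 2 E2f2 probe sets had a Pearson r of -0.51. In K-ras 0 of 22 probe sets were called at 24 h against 0 h, 72 h against 24 h or 72 h against 0 h with limma, against 0% of all 34945. At an unadjusted p under 0.05 the members counted 1, 3 and 5 and all probe sets 556, 3318 and 4951. Without replicate 2 of K-ras at 72 h, only the array that stands apart is left there. The 72 h against 0 h values were then -1.41 for E2f3 and -2.79 for E2f5 by 1447625_at.

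The canonical repressor E2f4, read by 1 probe set, lay in a narrow band at 25 mM. In NIH3T3 it lay at -0.18 and 0.19, 0.24 and 0.13, 0.03 and -0.12, and 0.13 and -0.51 at 0, 24, 48 and 72 h. In K-ras it lay at 0.01 and 0.24, -0.02 and -0.52, 0.03 and -0.01, and 0.39 and 0.21. The arrays of 0 and 72 h overlap in both lines. The 72 h against 0 h value was -0.19 ± 0.34 (95% interval -0.91 to 0.53) in NIH3T3 and 0.18 ± 0.34 (95% interval -0.54 to 0.90) in K-ras, where it was 0.07 ± 0.34 without the 0 h array of the other profile. E2f5 in K-ras lay at -0.27 and 0.41, 0.77 and 0.39, 0.33 and 0.31, and 0.12 and 0.46 at these times, and its lowest value was again the array with the other line's profile.

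Subtracting repressors from activators gives the contrast between the classes on each array, as the mean log2 ratio of E2f1, E2f2 and E2f3 minus that of E2f4 and E2f5, with the largest-SD probe set of each. In NIH3T3 at 25 mM it was 0.97 ± 0.09 at 0 h, 1.21 ± 0.34 at 24 h, -0.11 ± 0.51 at 48 h and -0.30 ± 0.17 at 72 h (SD, n = 2). In K-ras it was 0.43 ± 0.66, 0.10 ± 0.35, -0.26 ± 0.20 and -0.63 ± 0.54. In NIH3T3 the early and late arrays did not overlap, and 72 h against 0 h differed by -1.27, against a pooled SD within groups of 0.35. No test was made on this score, since its genes were chosen with results known. In K-ras the same difference was -1.07 with all arrays and -0.60 without the array of the other profile at 0 h. With the mean over all probe sets of a gene these differences shrank to -0.83 in NIH3T3 and -0.40 in K-ras. At 1 mM the contrast went the other way over time in NIH3T3, from -0.41 ± 0.05 at 24 h to -0.17 ± 0.37 at 48 h and 0.27 ± 0.28 at 72 h. There both arrays at 24 h and 1 at 48 h had the K-ras profile. In K-ras at 1 mM it was 0.09 ± 0.16, 0.06 ± 0.37 and 0.16 ± 0.05, and replicate 1 at 48 h and at 72 h had the NIH3T3 profile. At 48 h that array was at 0.32 and the other at -0.21, and at 72 h they were at 0.12 and 0.20.

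**Figure D2:**
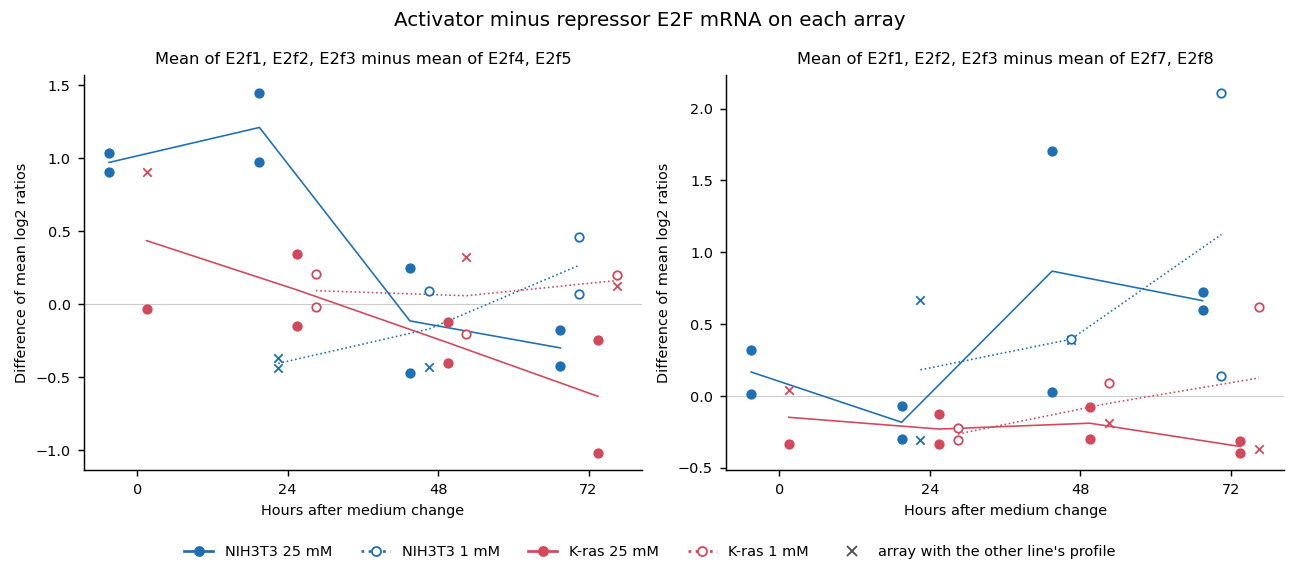
The mean log2 ratio of E2f1, E2f2 and E2f3 minus that of E2f4 and E2f5 (left) or of E2f7 and E2f8 (right) is plotted for each array against hours after the medium change, with lines through group means and crosses for the 6 arrays with the other line's profile. Against E2f4 and E2f5 the NIH3T3 25 mM mean goes from 0.97 at 0 h to -0.30 at 72 h, while against E2f7 and E2f8 it goes from 0.17 to 0.66.

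The atypical repressors E2f7 and E2f8 had lower values late in NIH3T3, in the same direction as the activators, without passing the threshold. E2f7 lay at 1.13 and 1.14 at 0 h, 1.34 and 1.19 at 24 h, -1.87 and 0.67 at 48 h and -0.36 and -0.63 at 72 h in NIH3T3 at 25 mM. E2f8, read by 1436186_at, lay at -0.25 and -0.41, -0.03 and -0.0015, -2.65 and -0.83, and -1.93 and -1.97 at these times. Both genes were lower on every 48 and 72 h array than on every 0 and 24 h array. At 72 h against 0 h E2f7 had -1.63 ± 0.98 and E2f8 -1.62 ± 0.66 (95% interval -3.01 to -0.23; limma, adjusted p = 0.176), and neither passed. With the atypical pair in place of E2f4 and E2f5, the contrast with the activators was 0.17 ± 0.21 at 0 h and 0.66 ± 0.09 at 72 h in NIH3T3, a difference of 0.50 against a pooled SD of 0.57. In K-ras it differed by -0.20 between the same times with all arrays and by -0.01 without the array of the other profile.

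In K-ras at 25 mM E2f8 was at 0.16 and 1.03 at 0 h, the first of these on the array of the other profile, 0.84 and 0.95 at 24 h, 0.60 and 0.78 at 48 h and 0.06 and 0.78 at 72 h. The change from 0 to 72 h was -0.18 ± 0.66 (95% interval -1.57 to 1.21), and -0.61 ± 0.82 without that array. The time change of E2f8 differed between the lines by 1.44 ± 0.93 (95% interval -0.53 to 3.40), short of the threshold, and by 1.00 ± 1.06 without it. For this interaction 0 of 22 probe sets were called, against 0.00286% of all. The E2f8 values above are by its probe set with the largest SD. By the other, 1444319_at, E2f8 was lower at 72 h than at 0 h in both lines, and was called in neither. Its means at 0 and 72 h were 0.68 and -0.13 in K-ras and 0.14 and -0.59 in NIH3T3. When any single array was left out, this difference ranged from -1.08 to -0.54 in K-ras and from -0.80 to -0.66 in NIH3T3. E2f7 lay at 1.31 and 0.22, -0.14 and 0.28, -0.90 and -0.13, and -0.79 and 0.02 in K-ras. The larger value at 0 h was the array of the other profile.

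**Figure D3:**
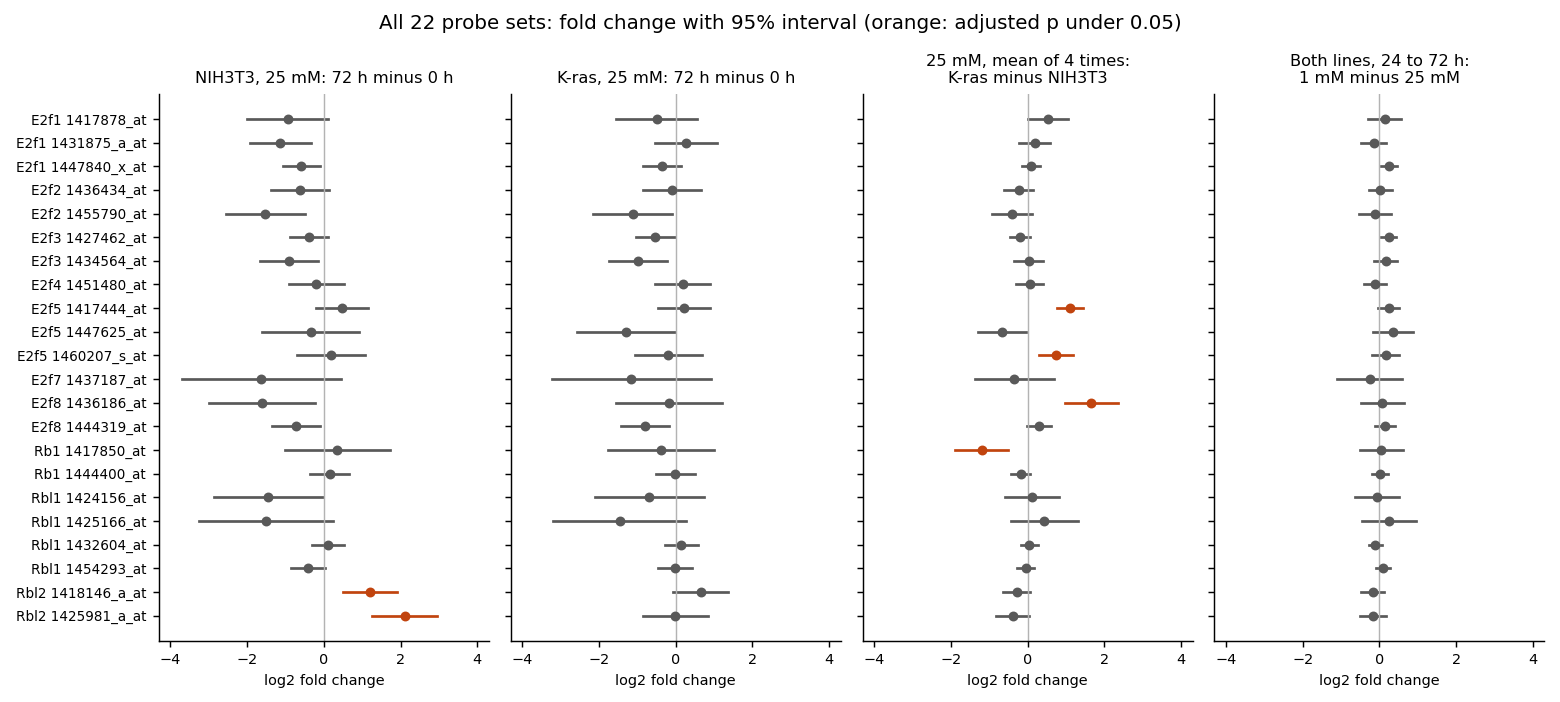
Log2 fold changes (points) with 95% confidence intervals (bars) from limma are drawn for all 22 probe sets in 4 comparisons, with those at an adjusted p under 0.05 in orange. Both Rbl2 probe sets pass at 72 h against 0 h in NIH3T3, 2 of E2f5, 1 of E2f8 and 1 of Rb1 pass between the lines, and none passes in K-ras over time or for glucose.

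The pocket protein Rbl1 had lower values late, at the times when Rbl2 rose, but no Rbl1 probe set passed the threshold. Rbl1, read by 1425166_at, lay at 0.28 and -0.07 at 0 h, 0.46 and -0.32 at 24 h, -1.43 and 0.06 at 48 h and -1.44 and -1.36 at 72 h in NIH3T3 at 25 mM. The 72 h against 0 h value was -1.51 ± 0.82 (95% interval -3.25 to 0.23). The 72 h arrays were below all earlier ones except replicate 1 of 48 h. Of the other Rbl1 probe sets, 1424156_at had -1.45 ± 0.68, 1454293_at -0.41 ± 0.21 and 1432604_at 0.12 ± 0.20, all of them uncalled. In K-ras Rbl1 lay at 1.33 and 0.18, 0.89 and 0.11, -1.18 and -0.22, and -1.56 and 0.16, with replicates far apart at each time. Rb1, the retinoblastoma protein gene, lay in NIH3T3 at 0.55 and 0.72, -0.12 and -0.03, 1.80 and 0.42, and 1.17 and 0.81. It was lowest at 24 h, and 72 h against 0 h differed by 0.36 ± 0.65 (95% interval -1.01 to 1.73).

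Between the lines, E2f5 and E2f8 were higher and Rb1 was lower in K-ras over the 4 times at 25 mM. The difference of the means over 0, 24, 48 and 72 h was 1.66 ± 0.33 for E2f8 (1436186_at; 95% interval 0.97 to 2.35; limma, adjusted p = 0.0068), 1.11 ± 0.16 for E2f5 (1417444_at; 0.77 to 1.46; 0.00315), 0.74 ± 0.21 for E2f5 (1460207_s_at, of the kind that can match other transcripts; 0.032) and -1.19 ± 0.32 for Rb1 (1417850_at; -1.88 to -0.51; 0.0276). Thus 3 of 22 probe sets were called higher and 1 lower, against 4.89% and 5.13% of all probe sets. E2f8 lay between -2.65 and -0.0015 on the 8 NIH3T3 arrays (median -0.62) and between 0.06 and 1.03 on the 8 K-ras arrays (median 0.78), with no overlap. E2f5 lay between -1.97 and -0.13 (median -0.62) in NIH3T3 and between -0.27 and 0.77 (median 0.36) in K-ras. The overlap came from the K-ras array with the NIH3T3 profile, since the other 7 lay between 0.12 and 0.77. Rb1 lay between -0.12 and 1.80 (median 0.63) in NIH3T3 and between -1.23 and 0.44 (median -0.42) in K-ras. Here too the other 7 K-ras arrays, at -0.40 or lower, did not overlap.

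Without the arrays of the other profile these 3 differences were 1.77 ± 0.36 for E2f8, 1.20 ± 0.12 for E2f5 (1417444_at) and -1.40 ± 0.20 for Rb1 (limma, adjusted p = 0.00341, 1.39e-05 and 0.000303). The calls of E2f8 and of E2f5 by 1417444_at held when any single array was left out. That of Rb1 was lost without any of 10 of the 16 arrays (limma, adjusted p from 0.051 to 0.0929) and that of E2f5 by 1460207_s_at without any of 11 (0.0507 to 0.101). As the bioC level coincides with the line at 25 mM, a fit with it as a block takes the effect of the level from NIH3T3 at 1 mM and 48 or 72 h, the groups with 1 array at each level, and the higher array at 48 h is one with the K-ras profile. In that fit 0 of 22 probe sets were called: E2f5 by 1417444_at had 0.53 ± 0.34, Rb1 -0.31 ± 0.71 and E2f8 -0.31 ± 0.52, the last with its sign turned. What part the hybridisation level has in the line differences cannot be told apart here.

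The probe sets of a gene did not all show the line difference. The third E2f5 probe set, 1447625_at, had -0.67 ± 0.30 in the opposite direction (limma, adjusted p = 0.19). Its value on replicate 1 of K-ras at 72 h was -3.06. E2f8 by 1444319_at had 0.30 ± 0.15 and Rb1 by 1444400_at -0.18 ± 0.12, both of the same sign and not called. Without the arrays of the other profile E2f8 by 1444319_at was called too (0.37 ± 0.09; limma, adjusted p = 0.0154). E2f4 (0.05 ± 0.17; 95% interval -0.31 to 0.41), E2f3 by 1434564_at (0.03 ± 0.18) and E2f7 (-0.34 ± 0.49) had intervals across 0. E2f1 by 1417878_at had 0.53 ± 0.25 (limma, adjusted p = 0.21). It ranged from 0.32 to 0.74 when 1 array was left out, and the highest value, without the K-ras array at 72 h that stands apart, was called (limma, adjusted p = 0.0483). The activators minus E2f4 and E2f5 differed between the lines by -0.53, and the activators minus E2f7 and E2f8 by -0.61, in both cases K-ras minus NIH3T3 (-0.65 and -0.66 without the arrays of the other profile). At single times 0 of 22 passed at 0 h, against 0.00286% of all, and 0 of 22 at 72 h, against 0.704%. At 72 h E2f8 had 2.37 ± 0.66 (limma, adjusted p = 0.0799), Rb1 -1.77 ± 0.65 (0.149) and E2f1 by 1431875_a_at 1.23 ± 0.38 (0.102). At 0 h E2f5 by 1417444_at had 0.88 ± 0.33 with all arrays and 1.22 ± 0.28 without the K-ras array of the other profile (limma, adjusted p = 0.983 and 0.0456). The latter sets 1 K-ras array against 2 NIH3T3 arrays.

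At 1 mM glucose and 72 h, 0 of 22 probe sets differed between the lines, against 0.114% of all (0.0343% higher and 0.0801% lower in K-ras). E2f5 by 1417444_at lay at -1.05 and -1.16 in NIH3T3 and -0.23 and 0.23 in K-ras, without overlap, a difference of 1.10 ± 0.33 (limma, adjusted p = 0.152). E2f8 lay at -0.50 and -3.22 against -0.36 and -0.11 (1.63 ± 0.66; 0.312). E2f4 ran the other way, at 0.68 and -0.10 in NIH3T3 and -0.78 and -1.02 in K-ras, a difference of -1.19 ± 0.34 (95% interval -1.91 to -0.47; limma, adjusted p = 0.14). Without replicate 1 of K-ras at 72 h and the other 5 arrays of the other profile, E2f4 had -1.31, E2f5 by 1417444_at 1.33 and E2f5 by 1460207_s_at 1.40. K-ras was then 1 array, with its spread taken from the other groups, so only the sizes are given.

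Glucose moved none of the 22 probe sets past the threshold with all arrays in the fit. Averaged over both lines and over 24, 48 and 72 h, 1 mM against 25 mM, 0 of 22 were called with limma, against 0% of all 34945 probe sets, where 2 of the members and 1843 of all had an unadjusted p under 0.05. The 2 were E2f1 by 1447840_x_at and E2f3 by 1427462_at, both higher at 1 mM. They ranged from 0.20 to 0.30 and from 0.18 to 0.31 when 1 array was left out. The other probe sets of these genes were not among the 2. E2f5 by 1447625_at had 0.35 ± 0.25 with all arrays and 0.10 ± 0.14 without replicate 1 of K-ras at 25 mM and 72 h, where it was read at -3.06. The 95% intervals of E2f8 (-0.49 to 0.64), Rb1 (-0.51 to 0.61) and E2f4 (-0.41 to 0.18) all included 0. The interval of E2f7 was the widest, -1.10 to 0.59. The activator minus E2f4 and E2f5 contrast differed by 0.000515 on average, the mean of unlike differences at 1 mM minus 25 mM. They were -1.62 in NIH3T3 at 24 h, where both 1 mM arrays had the K-ras profile, -0.06 at 48 h and 0.57 at 72 h. In K-ras they were -0.01, 0.32 and 0.79. Without the arrays of the other profile the 48 h values were 0.20 in NIH3T3 and 0.06 in K-ras, and the 72 h value in K-ras was 0.83. By line at 72 h, 0 of 22 were called in NIH3T3, against 0.00286% of all, and 0 in K-ras, against 0.2% (0.0486% higher and 0.152% lower at 1 mM). In K-ras at 24 h, where all 4 arrays had the K-ras profile, 0 were called against 0% of all, with 0 members and 273 of all at an unadjusted p under 0.05 in limma.

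At 24 h in K-ras the members lay close together at both glucose levels. E2f8 lay at 0.84 and 0.95 at 25 mM and at 0.98 and 0.87 at 1 mM, a difference of 0.03 ± 0.66. E2f5 by 1417444_at lay at 0.77 and 0.39 against 0.21 and 0.48 (-0.23 ± 0.33). Rb1 lay at -0.40 and -0.65 against -0.54 and -0.69. E2f7 lay at -0.14 and 0.28 against -0.11 and -0.02, and Rbl2 lay at -0.0098 and -0.53 against -0.31 and -0.04. The glucose groups overlap for each of these genes. The intervals, such as -1.36 to 1.42 for E2f8, use the spread of all groups and so remain wide.

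In K-ras at 72 h the glucose group means of 1 probe set each of E2f1, E2f4, E2f5 and Rb1 differed by more than 1 on the log2 scale. No member probe set was called with all arrays. Replicate 1 at 1 mM is the array with the NIH3T3 profile. E2f4 lay at 0.39 and 0.21 at 25 mM and at -0.78 and -1.02 at 1 mM, without overlap, a difference of -1.20 ± 0.34 (95% interval -1.92 to -0.49; limma, adjusted p = 0.128), and -1.32 ± 0.34 without the arrays of the other profile (0.0506). E2f1 by 1431875_a_at had -1.66 ± 0.38 (limma, adjusted p = 0.0731), and this passed at -2.13 without replicate 1 of K-ras at 1 mM (limma, adjusted p = 0.0385; 0.00945 without all 6 arrays of the other profile) and at -1.99 without replicate 2 at 25 mM (0.0101). The E2f1 probe set with the largest SD, 1417878_at, had -0.30 ± 0.50 in the same comparison. Rb1 by 1417850_at lay at -1.14 and -0.41 at 25 mM and at 1.62 and 0.03 at 1 mM, a difference of 1.60 ± 0.65 (limma, adjusted p = 0.269), and of 0.80 ± 0.47 without the 1 mM array of the NIH3T3 profile. For E2f5, 1417444_at had means of 0.29 at 25 mM and -0.0041 at 1 mM, and 1460207_s_at had -0.08 and 0.26. E2f5 by 1447625_at lay at -3.06 and -0.07 at 25 mM and at 0.14 and 0.11 at 1 mM. Its difference of 1.69 ± 0.60 (limma, adjusted p = 0.211) was 0.20 ± 0.40 without the low array and 3.19 ± 0.40, called, without the other (0.000156).

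In NIH3T3 at 72 h E2f4 had 0.48 ± 0.34 and Rb1 -0.47 ± 0.65. There 4 members and 2308 of all probe sets had an unadjusted p under 0.05 in limma. Besides Rbl2, given below, these were E2f1 by 1447840_x_at, E2f8 by 1444319_at and E2f5 by 1417444_at. When 1 array was left out they ranged from 0.64 to 0.98, from 0.62 to 0.89 and from -0.98 to -0.57. The mean of E2f5 by 1447625_at went the other way, from -0.22 at 25 mM to 0.65 at 1 mM. The difference of the glucose effect between the lines was -1.68 ± 0.48 for E2f4 and -1.90 ± 0.54 for E2f1 by 1431875_a_at (limma, adjusted p = 0.237 for both). For Rb1 by 1417850_at it was 2.06 ± 0.92 in the other direction (limma, adjusted p = 0.402), from 1.27 to 2.86 when 1 array was left out, and for Rbl2 by 1425981_a_at 1.35 ± 0.57 (0.375). In the fit without the 6 arrays the 4 values were -1.80 ± 0.43, -2.38 ± 0.50, 1.27 ± 0.61 and 0.75 ± 0.47. Rbl2 by 1425981_a_at in NIH3T3 at 72 h was at 1.61 and 1.36 at 25 mM and at 0.75 and 0.43 at 1 mM, a value of -0.89 ± 0.40 (95% interval -1.74 to -0.05; limma, adjusted p = 0.713). The other Rbl2 probe set, 1418146_a_at, was lower at 1 mM in K-ras at 72 h, from -0.97 to -0.61 when 1 array was left out. At 1 mM and 72 h it was lower in K-ras than in NIH3T3, from -1.14 to -0.82. Neither difference was called with all arrays. No member was called for the glucose by line difference at 72 h with limma (0% of all; 4 members and 4049 of all at an unadjusted p under 0.05).

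Most known E2F targets had lower values late in NIH3T3, and few passed the threshold. Of 42 listed targets for DNA synthesis 39 were measured, and of 24 for cell cycle control 22. At 72 h against 0 h all 39 and all 22 had values below 0, with medians of -1.80 and -1.86 against -0.07 for all 18193 genes. Of these targets 2 and 1 were called lower, when 5.57% of all genes were called in either direction. The called genes were Cdt1, a replication licensing factor (-2.42 ± 0.64), Mcm3, a subunit of the replicative helicase (-3.09 ± 0.88), and Cdca7, a chromatin protein of the cell cycle (-1.78 ± 0.41), with limma adjusted p of 0.0373, 0.049997 and 0.0194. At 72 h against 24 h Ccne1, the gene of cyclin E1, was also called (-2.13 ± 0.58; limma, adjusted p = 0.0435). The lists of MuvB and DREAM proteins, of the DP partners with E2f6, and of pocket protein kinases with their inhibitors had 0 called genes of 9, 3 and 16 at 72 h against 0 h. Without the 6 arrays of the other profile, 3 and 6 targets were called lower, and 1 gene of each of these 3 lists, against 10.8% of all genes called. Of 15 measured corepressors of pocket proteins, 3 rose: Arid4a (2.0 ± 0.35) and Arid4b (2.07 ± 0.42), which bind the retinoblastoma protein and the Sin3 complex, and Smarca2, a chromatin remodelling ATPase (2.22 ± 0.59), with limma adjusted p of 0.00598, 0.0115 and 0.0365.

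In K-ras at 72 h against 0 h no target was called and the medians were -0.81 for DNA synthesis, with 0 of 39 above 0, and -0.89 for cell cycle control, with 1 of 22 above 0, against 0.04 for all genes. Without replicate 1 at 72 h, the array that stands apart, these medians were -0.22 and -0.41, and without the arrays of the other profile -0.54 and -0.86. Between the lines over the 4 times at 25 mM, 3 of 39 and 1 of 22 targets were called higher in K-ras, with medians of 0.35 and 0.35 against -0.04 for all genes, of which 11.2% were called. With the bioC level as a block no target was called and both medians turned sign, to -0.82 and -0.92, against -0.07 for all genes. Without the arrays of the other profile, and without that block, the medians were 0.30 and 0.33, with 1 K-ras array left at 0 h. The called targets were Pola1 (0.96 ± 0.28), Tyms (0.77 ± 0.22), Cdc7 (1.19 ± 0.34) and Skp2 (1.21 ± 0.34), of DNA polymerase alpha, thymidylate synthase, the kinase that starts replication origins and the ubiquitin ligase subunit that targets E2F1 and p27. Skp2 is also listed for turnover of E2F proteins, where it was the only 1 of 6 called. Without replicate 1 of NIH3T3 at 48 h the 2 medians were 0.04 and 0.07. Of 16 pocket protein kinases and inhibitors, Cdk6 alone was called, lower in K-ras at -1.80 ± 0.39 (limma, adjusted p = 0.00907). Of 15 corepressors of pocket proteins, Arid4a alone was called, higher in K-ras at 0.94 ± 0.17 (limma, adjusted p = 0.00524). With the bioC level as a block no gene of these lists was called.

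The members differed in how closely they ran with these targets over the 28 arrays. E2f7 had a Pearson r of 0.87 with the median of the DNA synthesis targets on each array, Rbl1 0.86 and E2f8 0.74, while E2f3 had 0.69, E2f2 0.65 and E2f1 0.62. E2f4 had 0.26, E2f5 -0.06, Rb1 -0.45 and Rbl2 -0.43. Within the 14 arrays of the NIH3T3 profile and the 14 of the K-ras profile, r was 0.98 and 0.94 for E2f7, 0.97 and 0.92 for E2f8, 0.90 and 0.93 for Rbl1, 0.30 and 0.30 for E2f4 and -0.62 and 0.32 for Rbl2. These correlations describe the arrays, which share cultures, times and a common normalisation, and have no test. In some groups replicates that were far apart in E2f7 and E2f8 were far apart in the targets too. In NIH3T3 at 25 mM and 48 h the target median was -1.97 and 0.16 where E2f7 was -1.87 and 0.67. At 1 mM and 72 h it was 0.22 and -2.31 where E2f7 was 0.78 and -2.12 and E2f8 -0.50 and -3.22. In others this was not so, or held for E2f7 only. In NIH3T3 at 1 mM and 48 h, where 1 array has the K-ras profile, the replicates were 0.99 apart in E2f7 and 1.24 in E2f8, with target medians of -0.38 and -0.07. In K-ras at 1 mM and 48 h they were 2.33 apart in E2f7, with target medians of 0.59 and -0.44, but only 0.35 apart in E2f8.

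**Figure D4:**
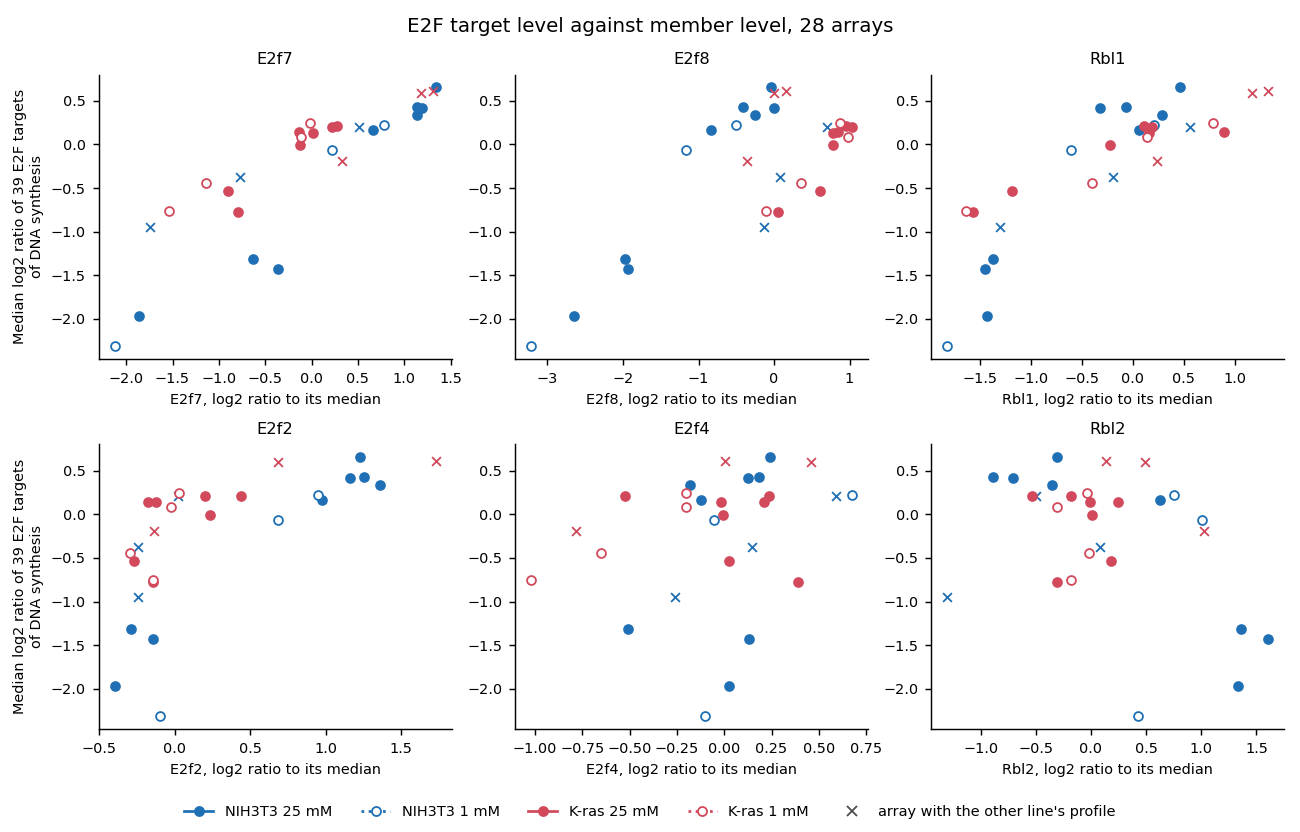
The median log2 ratio of 39 E2F targets of DNA synthesis on each of the 28 arrays is plotted against the log2 ratio of 6 members, with NIH3T3 in blue, K-ras in red, open points at 1 mM and crosses for the 6 arrays with the other line's profile. E2f7 (r = 0.87) and Rbl1 (0.86) rise with the targets, E2f8 (0.74) does so along separate bands, E2f4 (0.26) shows little relation, and the 3 highest Rbl2 values lie on arrays with targets below -1.3.

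The genes most like each member over the 28 arrays were named by a fixed rule, the 3 highest Pearson r over all other named genes. For E2f7 they were Asf1b, a histone chaperone (0.97), Cenps, a kinetochore protein (0.97), and Rad54l, a recombination ATPase (0.965), with r of 0.98 in the NIH3T3 profile and 0.92 to 0.95 in the K-ras profile. For E2f8 they were Pola1 (0.96), Arhgap22 (0.95) and Map3k20 (0.94), and for Rbl1 Tamm41 (0.92), Dna2, a replication nuclease and helicase (0.91), and Ezh2, the methyltransferase of Polycomb (0.91). For E2f2 they were Ptchd4 (0.90), Aunip (0.89) and Dbf4 (0.89), where Ptchd4 had 0.95 in the NIH3T3 profile and 0.17 in the K-ras profile. E2f1 was most like Rcc1l (0.91), Map2k3os (0.89) and Fbl, the nucleolar methyltransferase fibrillarin (0.89), and E2f3 like Bambi (0.90), Slc35d1 (0.90) and Polr3g (0.89).

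The repressors and Rb1 and Rbl2 had other neighbours. E2f4 was most like Pcbp4 (0.87), Ncln (0.86) and Fscn1, the actin-bundling fascin (0.85), and E2f5 like Fkbp3 (0.94), Zc3h14 (0.91) and Nudt4 (0.91). Fkbp3 had 0.86 with E2f5 in the NIH3T3 profile and 0.43 in the K-ras profile. Rb1 was most like Naip2 (0.93), Fbxl2 (0.92) and Dmxl2 (0.91), and Rbl2 like Mterf2 (0.90), Pgpep1 (0.89) and Nck2 (0.89), with 0.95 and 0.63 for Mterf2 in the NIH3T3 and K-ras profiles.

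The cell type was checked on marker lists, read as differences since the values hold no level. Over the 4 times at 25 mM, K-ras against NIH3T3, 2 of 11 fibroblast markers were called higher, 3 of 8 epithelial and 2 of 7 skeletal muscle markers lower, 1 of 7 leukocyte and 1 of 5 fat markers higher, and of 7 endothelial markers 1 higher and 1 lower, against 11.2% of all genes. Of the fibroblast markers 8 of 11 had values above 0, with a median of 0.43 against -0.04 for all genes. With those 6 arrays left out, 4 fibroblast markers were called higher and 1 lower, against 18.0% of all genes. Whether defining markers were absent cannot be read from ratios, and the part of these genes in the member differences was not tested. At 72 h against 0 h in NIH3T3, where Rbl2 rose, 1 of 11 fibroblast markers was called higher (Pdgfra, 3.73 ± 0.79) and 1 of 7 muscle markers lower (Acta1, -4.84 ± 0.62), with limma adjusted p of 0.0141 and 0.00132, against 5.57% of all genes. Of the fibroblast markers 9 of 11 had values above 0 in this comparison, with a median of 1.56 (range -0.18 to 3.95), against -0.07 for all genes. At 72 h against 24 h all 11 were above 0, with a median of 2.22 against -0.10, and 2 were called higher, against 5.93% of all genes. The medians of the other 5 marker lists lay between -0.23 and 0.08 in these 2 comparisons. The part of these genes in the rise of Rbl2 was not tested.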

How the data were processed

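Total RNA, taken with Trizol and RNeasy columns and labelled with biotin per the labels' protocols, was hybridised to Affymetrix arrays, 1 array a sample. The file deposited for the series gives 45101 probe sets on 28 arrays on a log2 scale, and RMA is named per the submitters' processing notes, with its version and step not given in the sources used here. Tested on the file, each deposited log2 value is a ratio to the probe set's median over all arrays (linear median 1 within 0.001), so levels and signal over background are unknown; the number of arrays limits precision. Symbols came from the platform annotation: 34945 probe sets had 1 symbol, and those with several (932), none (9160) or control sequences (64) were left out.

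limma 3.58.1 (R 4.3.3; lmFit, eBayes) was fitted with 1 coefficient per labelled group on all 28 arrays (14 residual degrees of freedom) for 16 comparisons, with Benjamini-Hochberg adjustment over all 34945 probe sets. Errors are limma standard errors unless named. Lists were read at the gene level, 1 probe set per gene (largest SD, 18193 genes), with p adjusted over all 34945 probe sets. The rule for named genes took every member with all its probe sets, the 3 genes most like each member and up to 4 called members of a list. The members, the 7 pathway lists, the marker lists and the tests were chosen with earlier results of these data known. The script was tested on simulated data. p-values measure the spread between these samples; nothing besides the label says how the replicates were grown. Same-numbered arrays did not deviate together (median r of -0.03 over 91 group pairs, 23 above 0.1), so numbers were not used to pair. Alternatives were other normalisation, filters, fits and blocks, and leaving out arrays. Figures used Python 3.11.15 and matplotlib 3.10.9.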

Additional observations from a re-analysis of the deposited data

How the results depend on the processing

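Of the counts of called members, those that changed by over 1.5 times did so as follows. Without the 6 arrays of the other profile, 6 probe sets were called at 72 h against 24 h in NIH3T3 (main count 3), against 8.91% of all. At 72 h against 0 h in NIH3T3 6 were called (main count 2), against 9.61% of all, and 4 between lines at 72 h (main count 0), against 7.8%. Counts between lines at 0 h, between lines at 1 mM and 72 h and for glucose in K-ras at 72 h also moved from 0. There 1 K-ras array was left in a group, so these counts are not read. The glucose average had no value, since NIH3T3 at 1 mM and 24 h lost both arrays. With only the arrays compared, 14 (4 higher, 10 lower) and 11 (2 higher, 9 lower) were called in the NIH3T3 comparisons, against 16.9% and 23.5% of all. Between lines at 72 h 1 was called, against 2.18%. Quantile normalisation again gave 1 and 1 in the NIH3T3 comparisons, against 2% and 3.13% of all. With 1 probe set per gene, 1 of 10 was called at 72 h against 0 h, against 5.52% of all. Without probe sets of low SD 1 was called between lines at 72 h, against 3.52%. With the bioC level as a block, 0 were called for the line average, and E2f1 by 1417878_at (-0.62), E2f5 by 1460207_s_at (-0.14) and E2f8 (-0.31) reversed, as did the medians of the DNA synthesis and cell cycle targets at 72 h (-0.10 and -0.23) and over the 4 times (-0.82 and -0.92), the last 4 chosen after seeing the data. The cause was not tested, apart from the fewer arrays or genes of each fit.

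Leaving out 1 array at a time gave 0 to 2 calls for NIH3T3 at 72 h against 24 h, 0 to 1 against 0 h, 2 to 4 for the line average, 0 to 1 for K-ras at 72 h against 24 h, 0 to 2 against 0 h, 0 to 2 for time by line, 0 to 3 between lines at 72 h, 0 to 2 for glucose in K-ras at 72 h and 0 to 2 for glucose by line. Each rise above 0 came without replicate 2 of K-ras at 25 mM and 72 h, and for glucose in K-ras also without replicate 1 at 1 mM. In those fits a group held 1 array and the share called over all probe sets rose too. These counts were therefore not read as a result about the members. E2f5 by 1447625_at reversed without replicate 1 of K-ras at 72 h (0.20 over time, 0.15 between lines) and was -2.79 and -2.84 without replicate 2. The contrast of activators with E2f4 and E2f5 in K-ras over time ranged from -1.54 to -0.60; by the mean of all probe sets it was -0.40, and -0.83 in NIH3T3, and without the 6 arrays -0.60 in K-ras. With the replicate number as a block, which does not pair the samples, the members called at 72 h against 0 h in NIH3T3 numbered 2, and no count moved by over 1.5 times.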
